A study of Mus musculus with 6 samples.

Results

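Ribosome biogenesis factors are the proteins that transcribe, modify, cut and fold ribosomal RNA and load it with ribosomal proteins. Their messenger RNAs were followed here in mouse CD4+ T cells stimulated in 3 ways. The members were the genes whose symbol in the platform annotation matched a fixed pattern of names (the Nop, Utp, Rrp, Polr1, Nol, Noc, Imp, Gnl and Ddx families and single genes such as Fbl, Dkc1, Pes1, Bop1 and Ncl). Each was read from the probe set, among those with exactly 1 gene symbol, that had the highest mean over the arrays. This gave 68 members with 128 probe sets, out of 17097 genes. The names alone chose them, so a few have other roles. Nol3 encodes a cell death repressor, and the role of Nol4 in ribosome assembly is unknown.

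The cells were CD4+CD25- T cells of female C57BL/6 mice, depleted of CD25+ cells with an antibody and magnetic beads and then selected for CD4. Their source is given as spleen by one label and as spleen with lymph nodes by another. They were cultured for 4 days on coated plates. Every well also received human TGF-beta (0.36 ng/ml) and mouse IL-2 (10 ng/ml). The BTNL2 wells carried an antibody to CD3 (clone 2C11) at 2 µg/ml, recombinant B7-2.Fc at 3 µg/ml and recombinant BTNL2.Fc, a protein of the butyrophilin-like family, at 11 µg/ml. The B7-2 wells carried anti-CD3 and B7-2.Fc, the ligand of CD28 and CTLA-4, with control IgG in place of BTNL2. The anti-CD3 wells carried anti-CD3 with human IgG and neither ligand. Each group had 2 cultures and 2 arrays, and nothing in the labels says that duplicates came from separate animals, so every p-value measures only the spread between these cultures. The soluble factors and anti-CD3 were common to the groups, and no unstimulated cells were analysed here.

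A resting T cell that is stimulated enlarges before it divides, and it makes many new ribosomes to do so. RNA polymerase I first copies the ribosomal DNA into a long precursor. In the nucleolus, small nucleolar ribonucleoproteins guide its methylation and pseudouridylation, the small subunit processome folds and cuts the part for the 40S subunit, and other factors build the 60S subunit. The transcription factor Myc is known to raise the genes of this pathway in activated lymphocytes.

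Intensities are on a linear scale after the authors' RMA processing. Duplicates correlated at r = 0.997 to 0.998 and arrays of different groups at r = 0.974 to 0.987 across the 17097 genes, which are not independent replicates. Median intensity was 18.4 to 18.8 per array, and the ratio of 3′ to 5′ signal of beta-actin, a sign of RNA integrity, was 1.67 to 1.92. For Gapdh, 3′ over 5′ signal stood highest with BTNL2, at 1.40 and 1.43, against 1.27 to 1.37 in the B7-2 and anti-CD3 wells, and the part of this difference in the results was not tested. The middle control probe set for 18S ribosomal RNA was lowest, at 683, on anti-CD3 array 2, and lay between 1308 and 2019 on all others. Its part in the results was not tested, but they are given below without that array. Since RMA makes arrays alike in distribution, a change shared by most transcripts would not be seen. A fall in RNA per cell and fewer cells of a type cannot be told apart in such samples. Errors of log2 changes are standard errors of the limma fit, with n = 2 arrays per group. Calls were made where the p-value, adjusted by Benjamini and Hochberg's method over all genes tested, was under 0.05.

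B7-2 costimulation was accompanied by a broad rise of the ribosome biogenesis genes, and BTNL2 left most of them near the B7-2 level. In the B7-2 wells over the anti-CD3 wells, 54 of 68 members rose and 2 fell, against 11.2% of all genes called higher and 13.3% called lower (24.5% in all). The arrays of the 2 groups did not overlap for 59 members higher and 3 lower, against 29.3% and 30.8% of all genes, and 59 members had an unadjusted p under 0.05, against 35.3%. The median log2 change of the members was 0.68, against -0.00484 for all genes. The members that rose did so by 1.24-fold to 2.59-fold. In the BTNL2 wells over the B7-2 wells, 3 members rose and 4 fell, where 9.52% of all genes were called higher and 10.8% lower (20.4% in all). An unadjusted p under 0.05 was reached by 19 members and by 32.4% of all genes. The member median was -0.0398, against -0.0114 for all genes. In the BTNL2 wells over the anti-CD3 wells, 50 members rose and 2 fell, against 14.2% of all genes called higher and 16.2% lower (30.4% in all), with a median of 0.59 for the members and -0.00456 for all genes. There 55 members did not overlap higher and 3 lower, against 30.8% and 32.2% of all genes, and 55 had an unadjusted p under 0.05, against 38.8%. The last comparison shares its arrays with the first 2, so the 3 sets of values stand side by side and none is a check of another.

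Array by array, most members stood below their own mean over the 6 arrays on the anti-CD3 arrays and above it on the other 4. On the BTNL2 arrays 56 and 58 of 68 members lay above their mean, on the B7-2 arrays 63 and 56, and on each anti-CD3 array 7. The median deviation was 0.18 and 0.20 on the BTNL2 arrays, 0.22 and 0.23 on the B7-2 arrays and -0.42 and -0.40 on the anti-CD3 arrays, on the log2 scale. The heat map of all members shows these deviations gene by gene.

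**Figure D1:**
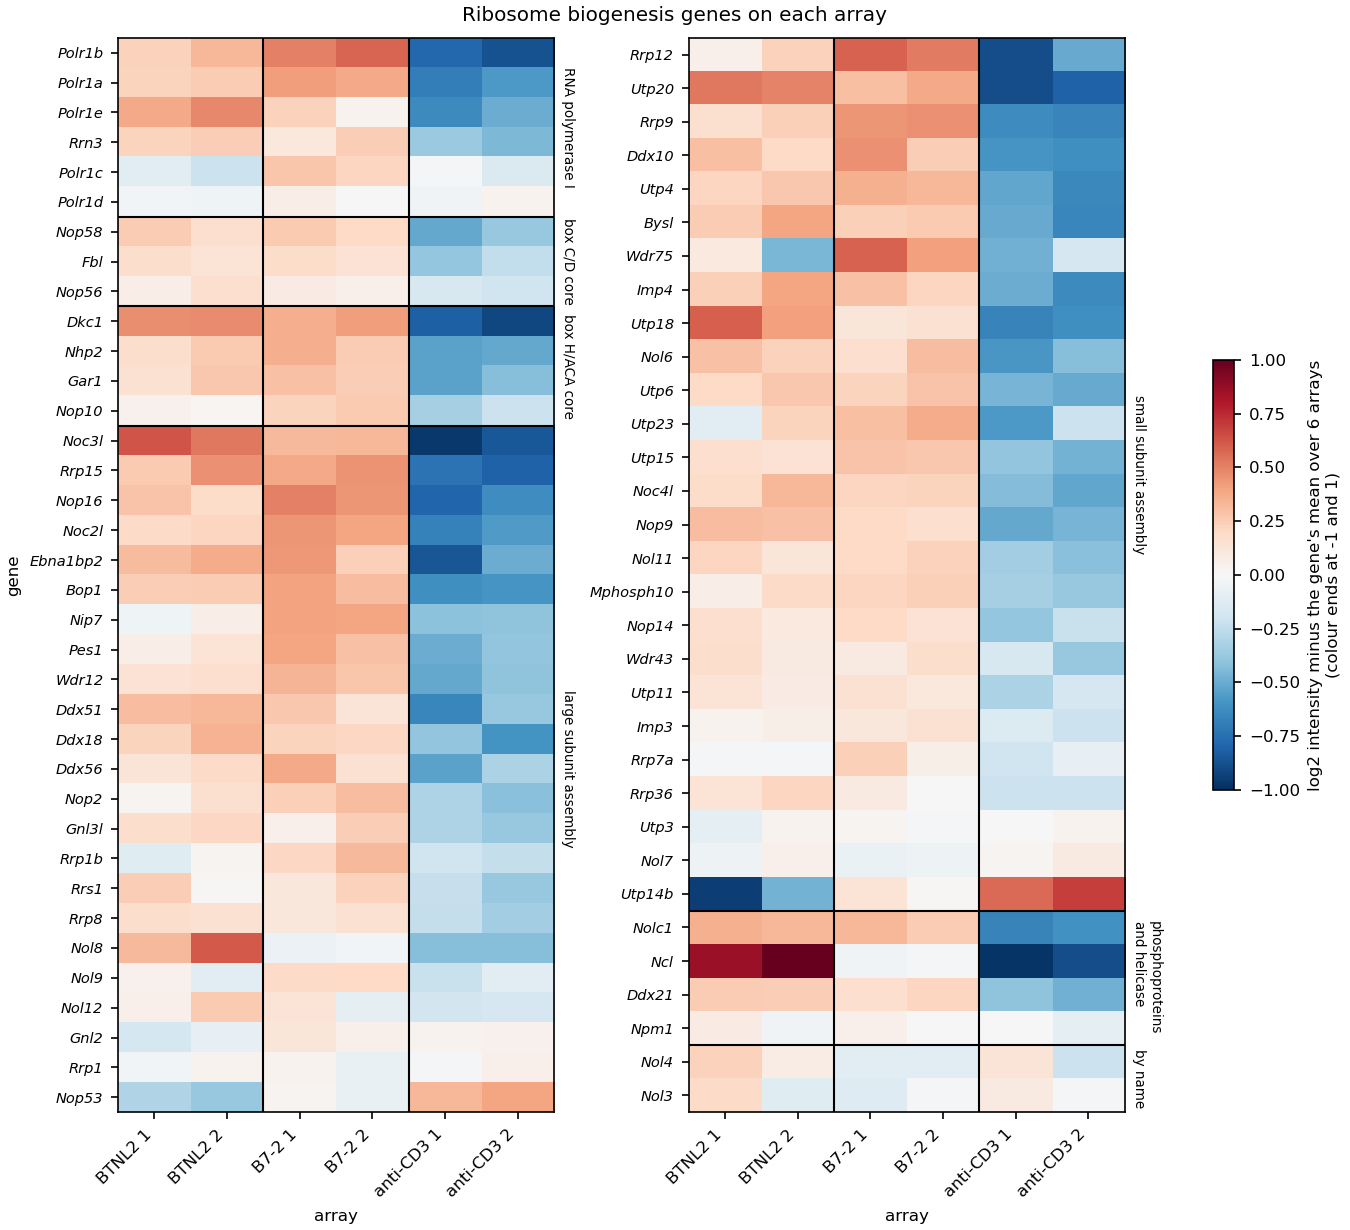
Log2 intensity of each of the 68 ribosome biogenesis genes on each array, minus the gene's mean over the 6 arrays. Genes run down the page by role and arrays across it by group, and the colour scale ends at -1 and 1. The anti-CD3 columns are blue for most genes, while Nop53 and Utp14b show the opposite order and Ncl is darkest red on the BTNL2 arrays.

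Leaving out 1 array lowered the number of calls. In the B7-2 over anti-CD3 comparison 42 to 54 members were called over the 6 omissions, and 45 without anti-CD3 array 2. In BTNL2 over anti-CD3 wells the member median log2 change was 0.58 to 0.62 over the omissions, and 0.62 without anti-CD3 array 2. The count of all called genes with B7-2 over anti-CD3, 4190, was 2722 without B7-2 array 1, 2687 without B7-2 array 2, 2454 without anti-CD3 array 1 and 2647 without anti-CD3 array 2.

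RNA polymerase I, the enzyme of ribosomal RNA synthesis, is represented by 5 subunit genes and Rrn3, whose product brings the polymerase to the promoter. In the B7-2 wells over the anti-CD3 wells 5 of these 6 genes rose and 0 fell, and in the BTNL2 wells over the anti-CD3 wells 4 rose and 0 fell. Polr1b, the gene of the second-largest subunit, read 172 and 185 in the BTNL2 wells, 208 and 219.9 in the B7-2 wells and 85.1 and 80.2 in the anti-CD3 wells. Both anti-CD3 arrays were far below the other 4, and the B7-2 arrays were the highest. Its rise with B7-2 over anti-CD3 was 2.59-fold (log2 change 1.37 ± 0.09, adjusted p = 0.000273), the largest among the members. With BTNL2 over B7-2 it did not pass (log2 change -0.26 ± 0.09, adjusted p = 0.0958, 95% interval -0.48 to -0.04).

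Polr1a, the gene of the largest subunit, read 213 and 218 in the BTNL2 wells, 244 and 238 in the B7-2 wells and 114 and 123 in the anti-CD3 wells. It rose 2.04-fold with B7-2 over anti-CD3 (log2 change 1.03 ± 0.09, adjusted p = 0.000525). Polr1e, the homologue of the human subunit PAF53, read 225 and 242 in the BTNL2 wells, 203 and 177 in the B7-2 wells and 111 and 123 in the anti-CD3 wells, with the BTNL2 arrays highest and no overlap between any pair of groups. It rose 2-fold in BTNL2 over anti-CD3 wells (log2 change 1.00 ± 0.11, adjusted p = 0.000565), while the step over B7-2 did not pass (adjusted p = 0.0988). Rrn3 read 1396 and 1418 in the BTNL2 wells, 1285 and 1421 in the B7-2 wells and 926 and 876 in the anti-CD3 wells, and the BTNL2 and B7-2 arrays overlapped.

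Among the members, Polr1c and Polr1d, whose products also serve RNA polymerase III, behaved otherwise. Other shared subunits, such as Polr2e, Polr2f and Polr2l, stand among the further polymerase I genes below. Polr1c read 1091 and 1015 in the BTNL2 wells, 1432 and 1371 in the B7-2 wells and 1161 and 1064 in the anti-CD3 wells. The B7-2 arrays were the highest, and the BTNL2 arrays overlapped with the anti-CD3 arrays. It rose 1.26-fold in B7-2 over anti-CD3 wells (log2 change 0.33 ± 0.09, adjusted p = 0.0409) and fell 1.33-fold in BTNL2 over B7-2 wells (log2 change -0.41 ± 0.09, adjusted p = 0.022). Both calls were lost when any array of the 2 groups compared was left out, and the first also without either BTNL2 array, at adjusted p = 0.0503. Polr1d read 3746 and 3699.5 in the BTNL2 wells, 3999 and 3801 in the B7-2 wells and 3718 and 3903 in the anti-CD3 wells and was called in none of the 3 comparisons.

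Box C/D particles carry the methyltransferase fibrillarin (Fbl) with Nop56 and Nop58. Fbl read 3025 and 2937 in the BTNL2 wells, 3033 and 2952 in the B7-2 wells and 2046 and 2253 in the anti-CD3 wells, and Nop58 read 1988 and 1878 in the BTNL2 wells, 1998 and 1917 in the B7-2 wells and 1171 and 1284 in the anti-CD3 wells. For both genes the BTNL2 and B7-2 arrays overlapped, and all 4 lay above the anti-CD3 arrays. Fbl rose 1.39-fold and Nop58 1.6-fold in B7-2 over anti-CD3 wells (adjusted p = 0.00929 and 0.00263). The Fbl call was lost without anti-CD3 array 1 (adjusted p = 0.0648) and without B7-2 array 1 (adjusted p = 0.0524). Nop56 read 4199 and 4512 in the BTNL2 wells, 4246 and 4159 in the B7-2 wells and 3590.4 and 3506 in the anti-CD3 wells. It did not pass with B7-2 over anti-CD3 (log2 change 0.24 ± 0.09, adjusted p = 0.0886) but was called higher with BTNL2 over anti-CD3 (log2 change 0.29 ± 0.09, adjusted p = 0.0408). That call was lost whichever of the 6 arrays was left out (adjusted p = 0.0635 to 0.162) and when only the 4 arrays compared were fitted (adjusted p = 0.0661). The B7-2 over anti-CD3 change was called when the variance prior followed intensity (adjusted p = 0.000812) and with dim genes left out (adjusted p = 0.0495). The difference between BTNL2 and B7-2 wells had a 95% interval of -0.16 to 0.26 for Nop56, -0.22 to 0.21 for Fbl and -0.24 to 0.20 for Nop58, on the log2 scale.

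Box H/ACA particles convert uridine to pseudouridine and hold Dkc1, the pseudouridine synthase, with Nhp2, Nop10 and Gar1. In the B7-2 over anti-CD3 wells, and likewise in the BTNL2 over anti-CD3 wells, 4 of 4 genes rose. Dkc1 read 1445 and 1453 in the BTNL2 wells, 1347 and 1398 in the B7-2 wells and 595 and 556 in the anti-CD3 wells. The anti-CD3 arrays were less than 600, and the BTNL2 arrays slightly above the B7-2 arrays. Dkc1 rose 2.38-fold in B7-2 over anti-CD3 wells (log2 change 1.25 ± 0.09, adjusted p = 0.000306) and 2.52-fold in BTNL2 over anti-CD3 wells (log2 change 1.33 ± 0.09, adjusted p = 7.32e-05). The 2 ligand groups differed by 0.08 on the log2 scale, with a 95% interval of -0.13 to 0.28. Nhp2 rose 1.78-fold, Gar1 1.68-fold and Nop10 1.43-fold in B7-2 over anti-CD3 wells. Nop10 read 3517 and 3462 in the BTNL2 wells, 3985 and 4103 in the B7-2 wells and 2718 and 2952 in the anti-CD3 wells, so its BTNL2 arrays lay between the other groups, without a call over B7-2 (adjusted p = 0.149). Its call with BTNL2 over anti-CD3 (log2 change 0.30 ± 0.09, adjusted p = 0.0404) was lost whichever of the 6 arrays was left out (adjusted p = 0.0645 to 0.196), when only the 4 arrays compared were fitted (adjusted p = 0.0645) and after a further quantile normalization (adjusted p = 0.0505).

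Among 26 genes of small subunit assembly, 21 rose and 1 fell with B7-2 over anti-CD3, with a median log2 change of 0.70, and 19 rose and 1 fell with BTNL2 over anti-CD3, with a median of 0.57. With BTNL2 over B7-2, 1 rose and 1 fell. Rrp12, whose yeast counterpart helps export pre-ribosomal particles, read 339.7 and 384 in the BTNL2 wells, 491 and 469 in the B7-2 wells and 177 and 231 in the anti-CD3 wells. It rose 2.38-fold with B7-2 over anti-CD3 (log2 change 1.25 ± 0.14, adjusted p = 0.00127), and the BTNL2 arrays stood lower than the B7-2 arrays without passing (log2 change -0.41 ± 0.14, adjusted p = 0.0888). The fall was called when only the 4 arrays compared were fitted (adjusted p = 0.0472) and when the variance prior followed intensity (adjusted p = 0.017). Utp20, a large scaffold protein of the processome, read 655 and 642 in the BTNL2 wells, 559 and 590.1 in the B7-2 wells and 245 and 259.6 in the anti-CD3 wells, with the BTNL2 arrays highest. It rose 2.28-fold in B7-2 over anti-CD3 wells (log2 change 1.19 ± 0.09, adjusted p = 0.000376) and 2.57-fold in BTNL2 over anti-CD3 wells (log2 change 1.36 ± 0.09, adjusted p = 7.06e-05).

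Rrp9, a protein of the U3 particle, rose 2.13-fold in B7-2 over anti-CD3 wells, the helicase gene Ddx10 1.94-fold, Utp4 1.91-fold and Bysl 1.77-fold. The 3 genes of the complex that binds U3 RNA differed in size: Imp4 rose 1.77-fold, Mphosph10 1.5-fold and Imp3 1.24-fold (adjusted p = 0.0375). The Imp3 call was lost whichever array was left out (adjusted p = 0.0516 to 0.168). Wdr75, a processome gene linked to RNA polymerase I, rests on dim signal, at 22.4 and 15.2 in the BTNL2 wells, 31.4 and 27.8 in the B7-2 wells and 14.9 and 18.6 in the anti-CD3 wells. It was called higher with B7-2 over anti-CD3 (adjusted p = 0.0221), but not without B7-2 array 1, B7-2 array 2 or anti-CD3 array 1 (adjusted p = 0.102, 0.0559 and 0.125). With BTNL2 over B7-2 it did not pass (log2 change -0.68 ± 0.20, adjusted p = 0.0504), while it was called with dim genes left out (adjusted p = 0.042). Utp18 stood apart by a further rise with BTNL2. It read 478 and 419.5 in the BTNL2 wells, 344 and 350.4 in the B7-2 wells and 199 and 207 in the anti-CD3 wells, and no 2 groups overlapped. The BTNL2 over B7-2 step was 1.29-fold (log2 change 0.37 ± 0.10, adjusted p = 0.0381). This call was lost without each of the arrays except the second BTNL2 array, and with the mean of its probe sets the log2 change was 0.14.

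Among 23 genes of large subunit assembly, 19 rose and 1 fell with B7-2 over anti-CD3, with a median log2 change of 0.69. With BTNL2 over anti-CD3, 17 rose and 1 fell, with a median of 0.55, and with BTNL2 over B7-2, 1 rose and 2 fell. Pes1, Bop1 and Wdr12 form a complex needed to process the 28S precursor. Pes1 read 536 and 565 in the BTNL2 wells, 676 and 627 in the B7-2 wells and 364 and 389 in the anti-CD3 wells, and Wdr12 read 1236 and 1257 in the BTNL2 wells, 1418 and 1355 in the B7-2 wells and 784 and 847 in the anti-CD3 wells. In both genes each BTNL2 array lay between the other groups. In B7-2 over anti-CD3 wells Pes1 rose 1.73-fold, Bop1 1.95-fold and Wdr12 1.7-fold (adjusted p = 0.00143, 0.000603 and 0.0014). With BTNL2 over B7-2 none of these 3 passed, at log2 changes of -0.24, -0.11 and -0.15 (adjusted p = 0.12, 0.439 and 0.296).

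Noc3l, which acts on pre-60S particles in yeast, read 262 and 244 in the BTNL2 wells, 212 and 214 in the B7-2 wells and 86.7 and 94.0 in the anti-CD3 wells. All groups were apart, with BTNL2 highest. It rose 2.36-fold in B7-2 over anti-CD3 wells (log2 change 1.24 ± 0.09, adjusted p = 0.000385) and 2.8-fold in BTNL2 over anti-CD3 wells (log2 change 1.49 ± 0.09, adjusted p = 6.03e-05). Its partner gene Noc2l rose 2.05-fold in B7-2 over anti-CD3 wells, and the other large rises there were of Rrp15 (2.27-fold), Nop16 (2.27-fold) and Ebna1bp2 (2.02-fold). For BTNL2 over B7-2 the chosen Noc2l probe set did not pass (log2 change -0.22, adjusted p = 0.141). Its other probe set was called lower there (log2 change -0.64, adjusted p = 0.00324), as was the mean of its probe sets (log2 change -0.43, adjusted p = 0.00891). That other probe set was not called in BTNL2 over anti-CD3 wells (log2 change 0.13, adjusted p = 0.357). Nip7, counted here with 60S assembly, read 1003 and 1079.8 in the BTNL2 wells, 1362 and 1358 in the B7-2 wells and 777 and 781 in the anti-CD3 wells, so the BTNL2 arrays lay between the others. Nip7 rose 1.74-fold in B7-2 over anti-CD3 wells (log2 change 0.80 ± 0.09, adjusted p = 0.00107) and fell 1.31-fold in BTNL2 over B7-2 wells (log2 change -0.39 ± 0.09, adjusted p = 0.0207). The fall was not called without the first or second B7-2 array (log2 changes -0.38 and -0.39) or the first BTNL2 array (log2 change -0.33). The other Nip7 probe set was also called lower in BTNL2 over B7-2 wells (log2 change -0.56, adjusted p = 0.0114). In BTNL2 over anti-CD3 wells that other probe set did not pass (log2 change 0.34, adjusted p = 0.0525).

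Nol8, a nucleolar protein gene, read 419 and 511 in the BTNL2 wells, 322 and 328 in the B7-2 wells and 249 and 249 in the anti-CD3 wells. It rose in each step, by 1.31-fold with B7-2 over anti-CD3 (log2 change 0.38 ± 0.11, adjusted p = 0.0459) and by 1.42-fold with BTNL2 over B7-2 (log2 change 0.51 ± 0.11, adjusted p = 0.019). The second step was not called without the first or second B7-2 array (adjusted p = 0.0871 and 0.0689) or the second BTNL2 array (adjusted p = 0.0665), and the first step was not called without any one of its 4 arrays. Its other 2 probe sets had log2 changes of 0.32 and 0.44 for BTNL2 over B7-2, of which the second was called.

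**Figure D2:**
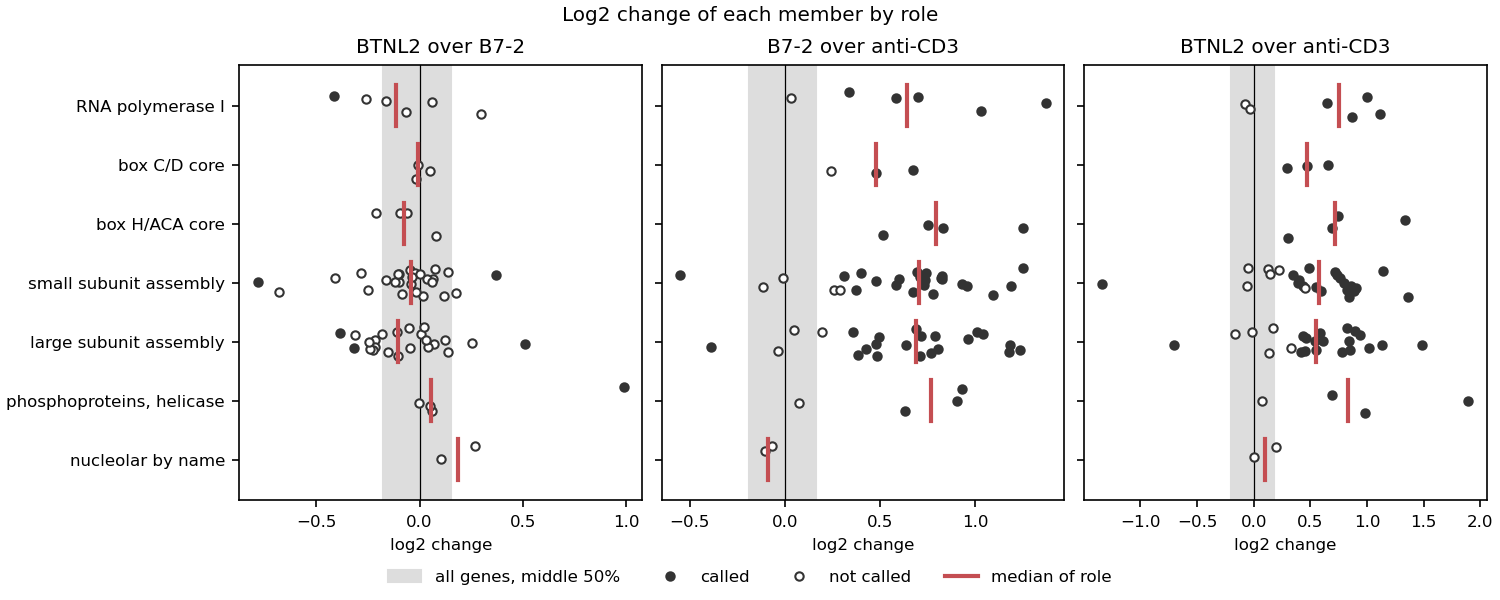
Log2 change of each member, by role, in the 3 comparisons, each panel with its own horizontal scale in log2 units. Filled points are called at an adjusted p under 0.05, open points are not, red bars are role medians and the grey band is the middle 50% of the 17097 genes. Most points lie right of the band over anti-CD3 and inside it or near it for BTNL2 over B7-2.

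The nucleolar phosphoproteins and the helicase gene Ddx21 ranged from the largest rise of the set to no call at all. Ncl, nucleolin, which binds the ribosomal DNA and precursor RNA, read 235 and 267 in the BTNL2 wells, 125 and 127 in the B7-2 wells and 65.3 and 69.7 in the anti-CD3 wells. The BTNL2 arrays were the highest and the anti-CD3 arrays the lowest, with no overlap. The change was 1.87-fold for B7-2 over anti-CD3 (log2 change 0.90 ± 0.10, adjusted p = 0.00113), 1.98-fold for BTNL2 over B7-2 (log2 change 0.99 ± 0.10, adjusted p = 0.000614) and 3.71-fold for BTNL2 over anti-CD3 (log2 change 1.89 ± 0.10, adjusted p = 3.32e-05). The last 2 were the largest rises among the members in their comparisons. Ncl was the member called in BTNL2 over B7-2 wells whichever array was left out, but it was read from a single probe set here, and other probe sets of the gene were not analysed. The Ncl probe set read low, at 65.3 to 267. Nolc1 read 597 to 1212, Ddx21 2077 to 3441 and Npm1 5278 to 5979. In the RefSeq annotation the small nucleolar RNA genes Snora75 and Snord82 and the microRNA gene Gm24148 overlap Ncl. Whether this probe set follows the nucleolin messenger RNA was not tested, so the changes are those of its signal.

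Npm1, nucleophosmin, a histone and ribosome chaperone gene, read 5979 and 5523 in the BTNL2 wells, 5854 and 5645 in the B7-2 wells and 5647 and 5278 in the anti-CD3 wells, with every group overlapping every other. The 95% interval of its difference was -0.14 to 0.29 for B7-2 over anti-CD3 and -0.22 to 0.22 for BTNL2 over B7-2. Nolc1, which escorts small nucleolar particles, read 1212 and 1196 in the BTNL2 wells, 1197 and 1132 in the B7-2 wells and 597 and 625 in the anti-CD3 wells. It rose 1.91-fold in B7-2 over anti-CD3 wells (log2 change 0.93 ± 0.09, adjusted p = 0.000698). Ddx21, which acts in both RNA polymerase I transcription and RNA processing, rose 1.55-fold in B7-2 over anti-CD3 wells (log2 change 0.63 ± 0.09, adjusted p = 0.00239).

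Only Nop53 and Utp14b fell with B7-2 among the members, and both fell again with BTNL2. Nop53, a pre-60S factor gene, read 3552 and 3375 in the BTNL2 wells, 4474 and 4153 in the B7-2 wells and 5529 and 5745 in the anti-CD3 wells. No 2 groups overlapped. It fell 1.31-fold in B7-2 over anti-CD3 wells (log2 change -0.39 ± 0.09, adjusted p = 0.0206), 1.25-fold in BTNL2 over B7-2 wells (log2 change -0.32 ± 0.09, adjusted p = 0.0489) and 1.63-fold in BTNL2 over anti-CD3 wells (log2 change -0.70 ± 0.09, adjusted p = 0.00119). The first call was lost without any one B7-2 or anti-CD3 array, and the second without any one of the 6 arrays. Its 2 other probe sets had log2 changes of -0.97 and -0.79 in BTNL2 over anti-CD3 wells, both called. With the mean of all its probe sets the B7-2 over anti-CD3 change was not called (adjusted p = 0.081).

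Utp14b, a retroposed copy of the X-linked processome gene Utp14a, read 30.3 and 41.9 in the BTNL2 wells, 64.1 and 58.7 in the B7-2 wells and 86.2 and 93.7 in the anti-CD3 wells. It fell 1.46-fold in B7-2 over anti-CD3 wells (log2 change -0.55 ± 0.16, adjusted p = 0.0421), 1.72-fold in BTNL2 over B7-2 wells (log2 change -0.78 ± 0.16, adjusted p = 0.013) and 2.52-fold in BTNL2 over anti-CD3 wells (log2 change -1.33 ± 0.16, adjusted p = 0.000823). The first call was lost without any array of either group, and the second without the first B7-2 array (adjusted p = 0.0699). In the RefSeq annotation Utp14b lies within the span of Acsl3, a fatty acid activation gene. Acsl3, named after its values were seen, read 110.3 and 134 in the BTNL2 wells, 252 and 238 in the B7-2 wells and 215 and 233.7 in the anti-CD3 wells, and it fell 2.02-fold in BTNL2 over B7-2 wells (log2 change -1.01 ± 0.12, adjusted p = 0.00118). Signal of Utp14b is uncertain on both counts, its similarity to the parent gene and its overlap with Acsl3, and their part was not tested.

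**Figure D3:**
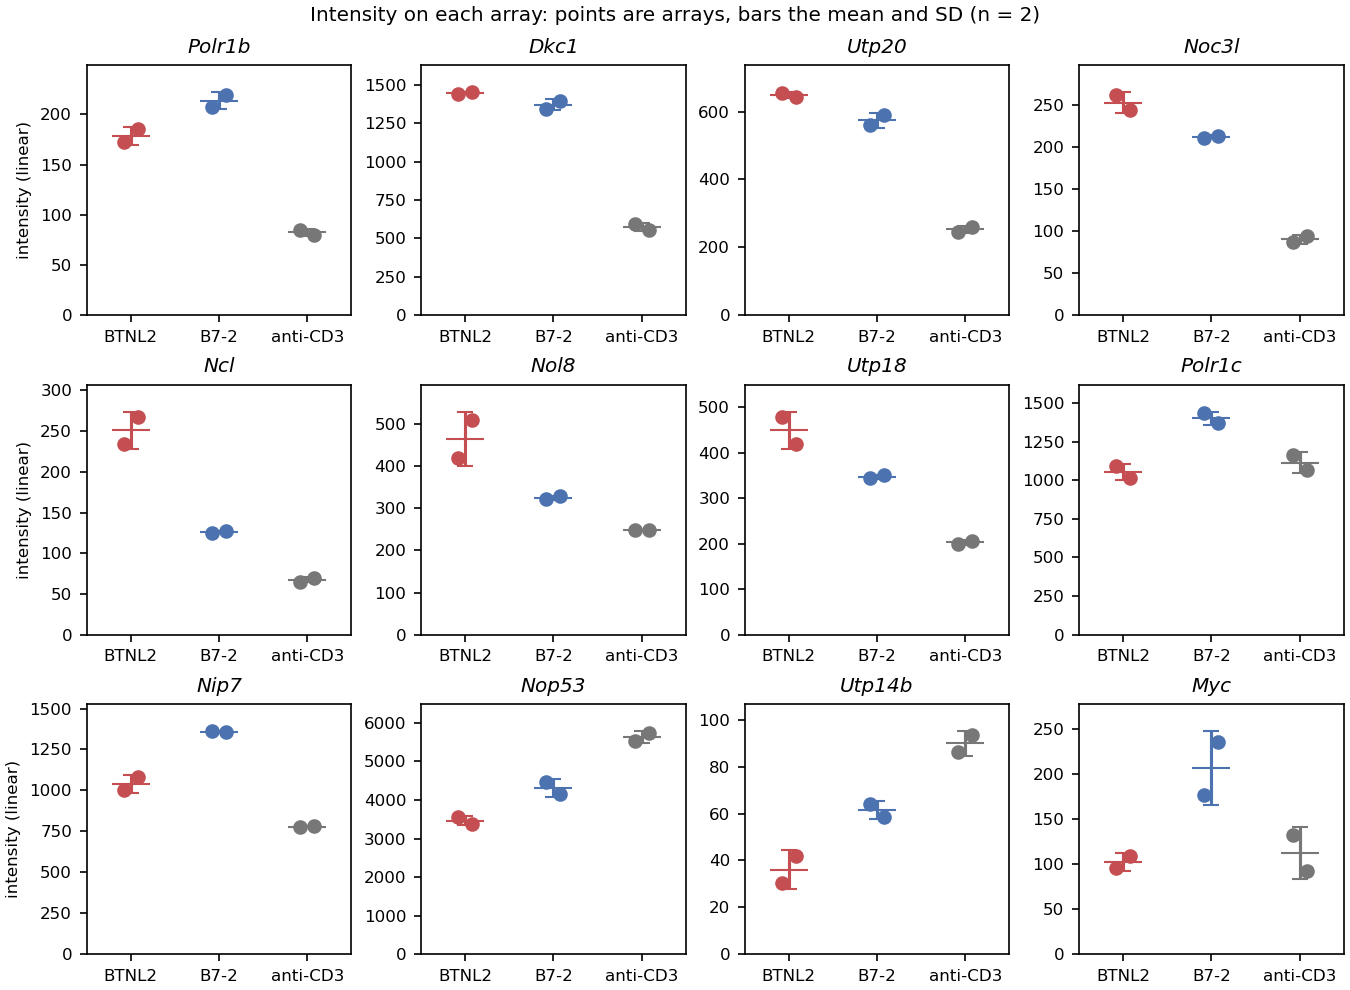
Linear intensity of 11 members and of Myc in the BTNL2, B7-2 and anti-CD3 wells. Points are single arrays and bars the mean and SD (n = 2), with each vertical axis starting at 0. Polr1b, Dkc1, Utp20 and Noc3l are low only in the anti-CD3 wells, Ncl is highest and Nop53 and Utp14b are lowest in the BTNL2 wells, and Myc is high only in the B7-2 wells.

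Few members differed much between BTNL2 and B7-2 wells, with a median size of log2 change of 0.10, against 0.16 for all genes, dim ones included. A size below that of all genes was not particular to the members. It was 0.0454 for the ribosomal protein genes and 0.118 for the DNA replication genes. In BTNL2 over B7-2 wells, the 95% interval of 59 of 68 members lay within a 1.5-fold change in either direction. Those of Utp14b, Wdr75, Polr1c, Rrp12, Utp23 and Nip7 reached a 1.5-fold fall, and those of Ncl, Nol8 and Utp18 a 1.5-fold rise. The share of all genes with an interval inside 1.5-fold was not computed. The arrays did not overlap for 13 members higher and 26 lower, where 27.9% and 31.0% of all genes had such a split. The 7 calls depended on the arrays: only that of Ncl remained without B7-2 array 1, and those of Ncl and Utp14b without B7-2 array 2. Without BTNL2 array 1, 3 remained and Wdr75 was added, and without BTNL2 array 2, 4 remained. The count of all called genes, 3482, was 2142 without BTNL2 array 1, 2181 without B7-2 array 1 and 2313 without B7-2 array 2. Letting the variance prior follow intensity gave 15 calls, 3 higher and 12 lower, the 7 original ones among them. Over all 17097 genes that setting called 2092 higher and 2320 lower, against 1628 and 1854 in the main fit.

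Altogether 10 members were called in none of the 3 comparisons by the probe set that stood for them: Gnl2, Nol3, Nol4, Nol7, Nol12, Npm1, Polr1d, Rrp1, Rrp7a and Utp3. Rrp1, a nucleolar protein gene, read 831 and 868 in the BTNL2 wells, 870.1 and 806 in the B7-2 wells and 836 and 879.9 in the anti-CD3 wells, and Utp3 read 1208 and 1316 in the BTNL2 wells, 1313 and 1275 in the B7-2 wells and 1286 and 1318 in the anti-CD3 wells. Their groups overlapped throughout. Nol7 read 2161 and 2307 in the BTNL2 wells, 2133 and 2156 in the B7-2 wells and 2274 and 2379 in the anti-CD3 wells and Gnl2, a nucleolar GTPase gene, 1545 and 1647 in the BTNL2 wells, 1900.0 and 1811 in the B7-2 wells and 1788 and 1797 in the anti-CD3 wells. Rrp7a (log2 change 0.29 ± 0.10, adjusted p = 0.0778) and Nol12 (log2 change 0.20 ± 0.12, adjusted p = 0.3) had positive changes in B7-2 over anti-CD3 wells that did not pass. Nol4 stayed dim, at 15.2 and 13.7 in the BTNL2 wells, 12.0 and 11.9 in the B7-2 wells and 14.1 and 11.2 in the anti-CD3 wells, and Nol3 read 70.0 and 56.3 in the BTNL2 wells, 56.04 and 60.7 in the B7-2 wells and 65.2 and 60.3 in the anti-CD3 wells. One other Nol3 probe set was called lower in all 3 comparisons, with log2 changes of -0.52 for B7-2 over anti-CD3, -0.81 for BTNL2 over B7-2 and -1.33 for BTNL2 over anti-CD3. Other probe sets were also called for Gnl2, one higher with B7-2 over anti-CD3 (log2 change 0.53, adjusted p = 0.0172) and one lower with BTNL2 over B7-2 (log2 change -0.39, adjusted p = 0.0369). One of Nol7 was called lower with BTNL2 over anti-CD3 (log2 change -0.31, adjusted p = 0.0484).

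Most of the probe sets that were not chosen were also called higher over anti-CD3. The 41 members with several probe sets held 60 further ones. Of these, 39 were called higher and 2 lower in B7-2 over anti-CD3 wells, with a median log2 change of 0.59, and 33 and 4 in BTNL2 over anti-CD3 wells, with a median of 0.48. In BTNL2 over B7-2 wells 2 were higher and 7 lower, with a median of -0.0717. In that same fit, all 128 probe sets of the members, chosen ones included, gave 5 higher and 10 lower. The share of all probe sets called was not counted. No member had probe sets called in opposite directions in any of the 3 comparisons.

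Assembly genes outside the naming pattern were read from separate lists. Of 20 other small subunit genes, 17 rose and 1 fell in B7-2 over anti-CD3 wells (median log2 change 0.68), 15 rose and 1 fell in BTNL2 over anti-CD3 wells (0.64), and 2 rose and 1 fell in BTNL2 over B7-2 wells (-0.0394). Pdcd11 rose 2.19-fold and Pno1 1.98-fold in B7-2 over anti-CD3 wells. Krr1 read 1349 and 1391 in the BTNL2 wells, 869.6 and 882 in the B7-2 wells and 878 and 925 in the anti-CD3 wells, with the BTNL2 arrays above the other 4 (log2 change 0.64 ± 0.09, adjusted p = 0.00216 over B7-2). With the mean of all its probe sets this call was lost (log2 change 0.20, adjusted p = 0.137), and B7-2 over anti-CD3 was called higher (log2 change 0.35, adjusted p = 0.0203). Of 30 other large subunit genes, 18 rose and 1 fell in B7-2 over anti-CD3 wells (median 0.44), 18 rose and 1 fell in BTNL2 over anti-CD3 wells (0.37), and 0 rose and 3 fell in BTNL2 over B7-2 wells (-0.0659). The largest of these 3 falls was of Ppan, a gene of early 60S assembly, at 582 and 634 in the BTNL2 wells, 998 and 844 in the B7-2 wells and 506 and 546 in the anti-CD3 wells (log2 change -0.60 ± 0.11, adjusted p = 0.0105). It was not called without BTNL2 array 1 or B7-2 array 1 (adjusted p = 0.065 and 0.0588). Ftsj3, an RNA methyltransferase gene, rose 2.41-fold and Las1l, of the complex that cuts the second internal spacer, 2.05-fold in B7-2 over anti-CD3 wells.

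Genes around RNA polymerase I were more mixed. Of 13 further polymerase I genes, 8 rose and 2 fell in B7-2 over anti-CD3 wells (median 0.41), 6 rose and 1 fell in BTNL2 over anti-CD3 wells (0.28), and 1 rose and 0 fell in BTNL2 over B7-2 wells (-0.10). The single rise was of Ubtf, the upstream binding factor of ribosomal DNA, at 1689.8 and 1698 in the BTNL2 wells, 1370.1 and 1346 in the B7-2 wells and 1011 and 989 in the anti-CD3 wells (log2 change 0.32 ± 0.08, adjusted p = 0.0352). This call was lost whichever of the 6 arrays was left out (adjusted p = 0.0631 to 0.133), when only the 4 arrays compared were fitted (adjusted p = 0.0631) and with the mean of all probe sets (log2 change 0.15, adjusted p = 0.365). Znrd1, a small subunit gene of the enzyme, read 412 and 413 in the BTNL2 wells, 504 and 471 in the B7-2 wells and 604 and 643 in the anti-CD3 wells and fell 1.51-fold in BTNL2 over anti-CD3 wells (log2 change -0.60 ± 0.09, adjusted p = 0.00236). Of 12 RNA polymerase III genes, which serve 5S and transfer RNA, 3 rose and 1 fell in B7-2 over anti-CD3 wells (median 0.0954), 4 rose and 2 fell in BTNL2 over anti-CD3 wells (0.0195), and 1 rose and 1 fell in BTNL2 over B7-2 wells (-0.14).

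The ribosomal protein genes did not show the members' rise. Of 68 cytosolic ribosomal protein genes, 4 rose and 0 fell in B7-2 over anti-CD3 wells, with a median log2 change of -0.0111, and 2 rose and 0 fell in BTNL2 over anti-CD3 wells, with a median of -0.0518. In BTNL2 over B7-2 wells 0 rose and 3 fell, with a median of -0.0403. Of these 68 genes, 64 lay above the 95th percentile of mean intensity over all genes, as did 14 members. Whether signal at the top of the scale hid a change was not tested. Rpl14 was among those called, at 771 and 810.0 in the BTNL2 wells, 1063 and 1040.0 in the B7-2 wells and 823 and 855 in the anti-CD3 wells, with the B7-2 arrays highest, and it fell 1.33-fold in BTNL2 over B7-2 wells (log2 change -0.41 ± 0.09, adjusted p = 0.0155). The fall was not called without BTNL2 array 1, B7-2 array 1 or B7-2 array 2 (adjusted p = 0.0777, 0.0811 and 0.0603).

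DNA replication genes were also higher in both ligand groups. Of 20, 15 rose and 0 fell in B7-2 over anti-CD3 wells (median 0.42), 16 rose and 1 fell in BTNL2 over anti-CD3 wells (0.50), and 1 rose and 0 fell in BTNL2 over B7-2 wells (0.0719). Rrm2, of ribonucleotide reductase, read 749 and 746 in the BTNL2 wells, 732 and 676 in the B7-2 wells and 362 and 355 in the anti-CD3 wells. Its 4 ligand-treated arrays all lay above the anti-CD3 arrays.

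**Figure D4:**
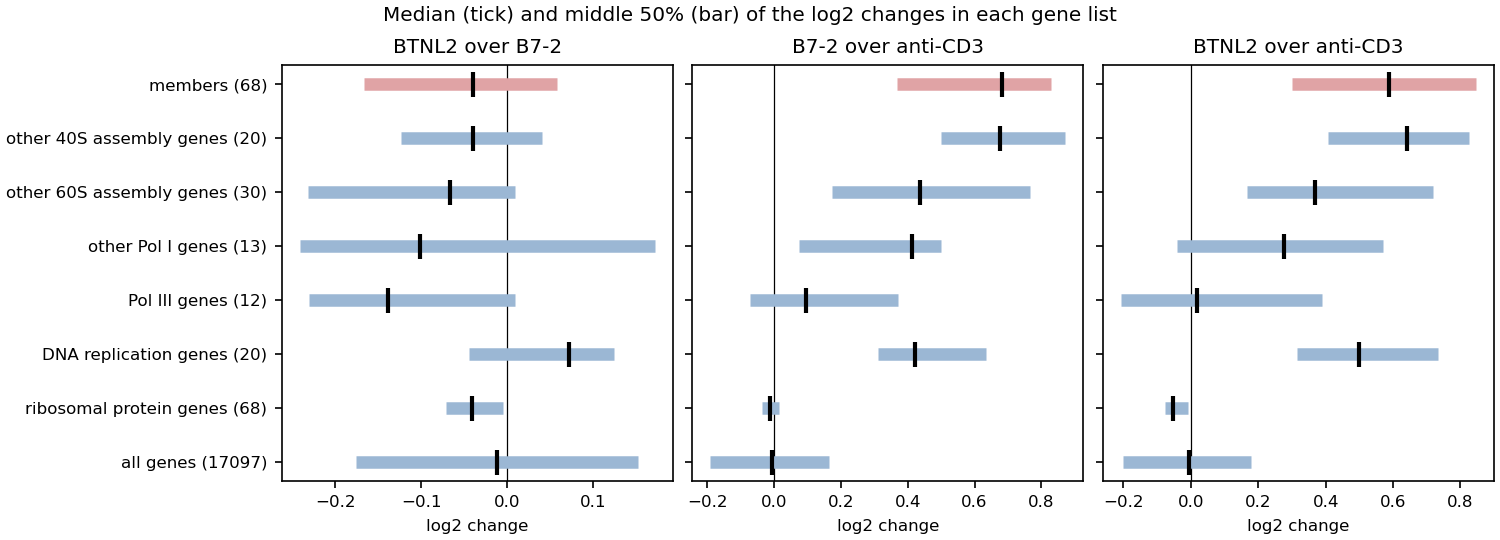
Median (tick) and middle 50% (bar) of log2 changes in each gene list for the 3 comparisons, with the number of genes in brackets and a horizontal scale of its own in each panel. Members, other 40S and 60S assembly genes and DNA replication genes sit right of 0 over anti-CD3, while the ribosomal protein genes sit close to 0.

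Myc did not keep the order of the members. It read 95.3 and 109 in the BTNL2 wells, 178 and 236 in the B7-2 wells and 133 and 92.4 in the anti-CD3 wells. The B7-2 arrays were high, and the BTNL2 and anti-CD3 arrays overlapped. Myc rose 1.85-fold in B7-2 over anti-CD3 wells (log2 change 0.89 ± 0.20, adjusted p = 0.0188) and fell 2-fold in BTNL2 over B7-2 wells (log2 change -1.003 ± 0.20, adjusted p = 0.0135), and for BTNL2 over anti-CD3 it did not pass (log2 change -0.12 ± 0.20, adjusted p = 0.731). The rise was not called without the second anti-CD3 or the second B7-2 array (adjusted p = 0.0876 and 0.0922), and the fall not without the second B7-2 or the first BTNL2 array (adjusted p = 0.0653 and 0.0852). Of 9 genes of the Myc and Max network, 1 rose and 3 fell in B7-2 over anti-CD3 wells, 2 rose and 3 fell in BTNL2 over anti-CD3 wells, and 1 rose and 2 fell in BTNL2 over B7-2 wells. The median log2 changes of this list were -0.00135, -0.12 and 0.0633.

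The members' promoters were read because most members moved together. RefSeq windows on GRCm38.p6, from 250 bases before to 50 bases after the annotated start, matched 54 of the 68 members. They were searched on both strands for CACGTG, the E-box that Myc and Max, and other factors of their class, can bind. The motif is its own reverse complement. It occurred in 11 of the 54 members (20.4%), against 10.2% of the 13605 tested genes with a window and 8.09% of all 27025 genes in the table. Of the 45 members that rose in B7-2 over anti-CD3 wells and had a window, 9 held it (20.0%), and of the other 9 members 2 did (22.2%). A match is a description of letters, not of binding. The windows of the 4 members with the motif and the largest rises are printed 5′ to 3′ on the gene's strand, with the E-box in capitals.
Utp20 (chr10:88826765-88827064, minus strand): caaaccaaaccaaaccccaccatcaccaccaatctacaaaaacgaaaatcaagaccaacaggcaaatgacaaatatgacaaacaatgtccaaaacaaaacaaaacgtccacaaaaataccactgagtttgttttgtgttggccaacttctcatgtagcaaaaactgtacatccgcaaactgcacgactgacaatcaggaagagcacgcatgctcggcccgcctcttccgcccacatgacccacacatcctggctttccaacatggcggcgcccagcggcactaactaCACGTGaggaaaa
Utp4 (chr8:106893390-106893689, plus strand): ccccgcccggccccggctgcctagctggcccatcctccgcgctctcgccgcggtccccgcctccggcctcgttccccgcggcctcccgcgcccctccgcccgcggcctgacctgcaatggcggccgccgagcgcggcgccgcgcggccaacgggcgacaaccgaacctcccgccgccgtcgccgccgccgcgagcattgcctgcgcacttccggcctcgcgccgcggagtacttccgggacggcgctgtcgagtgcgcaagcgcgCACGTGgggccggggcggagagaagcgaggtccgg
Imp4 (chr1:34439579-34439878, plus strand): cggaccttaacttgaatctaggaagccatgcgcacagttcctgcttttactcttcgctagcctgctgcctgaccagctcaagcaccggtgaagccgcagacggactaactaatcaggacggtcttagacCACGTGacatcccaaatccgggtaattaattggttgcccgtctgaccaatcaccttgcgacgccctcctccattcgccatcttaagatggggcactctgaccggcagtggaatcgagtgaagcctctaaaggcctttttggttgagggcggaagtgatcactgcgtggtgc
Pes1 (chr11:3963725-3964024, plus strand): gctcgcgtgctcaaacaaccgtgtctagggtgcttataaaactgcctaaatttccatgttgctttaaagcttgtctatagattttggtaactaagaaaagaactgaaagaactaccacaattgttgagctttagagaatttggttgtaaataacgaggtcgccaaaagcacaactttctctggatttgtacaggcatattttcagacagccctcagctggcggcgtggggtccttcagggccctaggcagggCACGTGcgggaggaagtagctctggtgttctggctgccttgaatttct

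The E-box begins 37 bases after the start in Utp20, 15 after it in Utp4, 121 before it in Imp4 and 2 after it in Pes1. These genes rose 2.28-fold, 1.91-fold, 1.77-fold and 1.73-fold in B7-2 over anti-CD3 wells. Polr1b, Dkc1 and Noc3l rose by more than each of these 4, and no CACGTG is in their windows.

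A pair of members has overlapping promoter windows. Ddx51, a helicase gene of 60S assembly, and Noc4l, a small subunit gene, lie head to head, with annotated starts 69 bases apart. The Ddx51 window, shown because it overlaps that of Noc4l, has the bases between the starts in capitals. Whether the stretch drives either gene was not tested.
Ddx51 (chr5:110653201-110653500, plus strand): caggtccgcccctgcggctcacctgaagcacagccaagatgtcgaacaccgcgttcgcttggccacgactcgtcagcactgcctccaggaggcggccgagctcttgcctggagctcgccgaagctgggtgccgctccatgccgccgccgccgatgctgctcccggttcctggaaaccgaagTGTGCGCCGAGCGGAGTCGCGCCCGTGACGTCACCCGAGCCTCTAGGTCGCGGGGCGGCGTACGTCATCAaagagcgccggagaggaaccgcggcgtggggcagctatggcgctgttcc

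Ddx51 read 213 and 217 in the BTNL2 wells, 207 and 188 in the B7-2 wells and 109 and 132 in the anti-CD3 wells, and Noc4l read 1179 and 1308 in the BTNL2 wells, 1209.9 and 1215 in the B7-2 wells and 769.9 and 727 in the anti-CD3 wells. In B7-2 over anti-CD3 wells their log2 changes were 0.71 and 0.70 (adjusted p = 0.00492 and 0.00235), and in BTNL2 over B7-2 wells 0.12 and 0.03, neither of them called.

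Markers of the cells themselves varied with the coatings. The first list held Cd4 with Cd2, Lck and Cd3 chain genes, and apart from Cd4 these are not particular to CD4 T cells. The summed intensity of its 5 measured genes was 15123 and 15055 in the BTNL2 wells, 15103 and 15216 in the B7-2 wells and 19147 and 18854 in the anti-CD3 wells. Of these genes 2 fell in B7-2 over anti-CD3 wells and 3 in BTNL2 over anti-CD3 wells. The sum of 6 CD8 T and NK cell markers was 5307 and 4939.7 in the BTNL2 wells, 3042 and 3057 in the B7-2 wells and 3494 and 3601 in the anti-CD3 wells. In this list 4 rose in BTNL2 over B7-2 wells, 3 fell in B7-2 over anti-CD3 wells and 3 rose in BTNL2 over anti-CD3 wells. For 5 B cell markers the sum was 620 and 802 in the BTNL2 wells, 333 and 307 in the B7-2 wells and 637 and 596 in the anti-CD3 wells, with 3 higher, 3 lower, and 1 higher and 1 lower in the same order of comparisons. The sum of 6 myeloid markers was 79.6 to 92.0 on all arrays, with 0 calls by limma and 0 unadjusted p-values under 0.05 in any comparison. These are values of marker RNA only. Whether they reflect other cells, and the part of any such cells in the members' changes, was not tested.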

How the data were processed

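The authors deposited 1 intensity per probe set and array, on a linear scale. Per the submitters' processing notes RMA made these values, and its settings are not given here. Per the labels' protocols the RNA was amplified and labelled with NuGen kits. Values were log2 transformed. Of 45141 probe sets, 104 were controls, 28898 had 1 gene symbol, 551 several and 15588 none here. Symbols came from the platform annotation, and 28689 probe sets matched GRCm38.p6 gene names by Entrez identifier. The highest mean log2 probe set stood for each gene, with no filter on dim genes. All 6 arrays entered 1 fit with limma 3.58.1 in R 4.3.3 (3 residual and 4.02 prior degrees of freedom), without a replicate block, and p-values were two-sided and Benjamini-Hochberg adjusted over 17097 genes. The procedure was tested on simulated data.

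The members, gene lists and promoter motif were chosen with earlier results of these data known. Members named with values were the core polymerase, snoRNP, PeBoW and phosphoprotein genes, the 4 largest rises and falls per comparison, those called against the majority and those never called. From other lists up to 3 called genes were eligible, and Myc was followed. The few others named were chosen after their values were seen. Alternatives changed the variance prior, arrays, filter, scaling, probe sets and replicate block.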

Additional observations from a re-analysis of the deposited data

How the results depend on the processing

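The number of arrays limits the precision of every value. The count of 7 members called in BTNL2 over B7-2 wells was 15 when the variance prior followed intensity, 12 when every probe set was tested (an alternative chosen after seeing the data) and 1 to 6 when each array was left out in turn. Of all genes, 4412 were called in that comparison when the variance prior followed intensity, against 3482 in the main fit. An omission leaves fewer samples, and the cause of the other changes was not tested. Leaving out each array gave 2142 to 3015 called genes in that comparison and 2454 to 4128 in B7-2 over anti-CD3. The member median for B7-2 over anti-CD3 was 0.65 with the mean of all probe sets and 0.63 to 0.69 over the omissions, and for BTNL2 over anti-CD3 it was 0.58 to 0.62. With that mean, Nol3 read -0.31 for BTNL2 over B7-2 and -0.58 for BTNL2 over anti-CD3, and Krr1 0.35 for B7-2 over anti-CD3, against 0.11, 0.00218 and -0.04. The replicate block ended the calls of Imp3, Polr1c and Nol8 for B7-2 over anti-CD3, of Ubtf, Utp18 and Nop53 for BTNL2 over B7-2 and of Nop56 and Nop10 for BTNL2 over anti-CD3, among the calls whose values are given. It gave 5, 52 and 51 called members in BTNL2 over B7-2, B7-2 over anti-CD3 and BTNL2 over anti-CD3. Deviations of same-numbered arrays correlated at -0.0272, -0.0641 and -0.000967 (BTNL2 with B7-2, B7-2 with anti-CD3 and BTNL2 with anti-CD3). These values cannot tell whether same-numbered cultures shared an animal or a day, and the labels do not say. The dim-gene filter, both scalings, the robust prior, the fit to the 4 arrays compared and the mean of all probe sets kept every total of called members within 1.5 times of the value given. By direction, the 4 members that fell in BTNL2 over B7-2 wells were 7 with dim genes left out and 8 with the mean of all probe sets, and the 2 that fell in B7-2 over anti-CD3 wells were 1 with median centring and 1 with that mean. Over all genes, the 1854 falls in BTNL2 over B7-2 wells were 2044 of 11881 genes with dim genes left out. They were 1864 with that mean. The 2281 falls in B7-2 over anti-CD3 wells were 2158 with median centring and 2081 with that mean.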

Other observations

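Of the Max network, Mxd1, Mxd4 and Mxi1 had larger calls than Myc. Mxd1, a Max partner that opposes Myc, read 689.9 and 536 in the BTNL2 wells, 139 and 146 in the B7-2 wells and 366 and 422 in the anti-CD3 wells, and it rose 4.26-fold in BTNL2 over B7-2 wells (log2 change 2.09 ± 0.14, adjusted p = 0.000107) while it fell 2.75-fold in B7-2 over anti-CD3 wells (log2 change -1.46 ± 0.14, adjusted p = 0.000733). Mxd4, of the same family, read 263 and 252 in the BTNL2 wells, 261 and 266 in the B7-2 wells and 1108 and 1083 in the anti-CD3 wells and fell 4.16-fold in B7-2 over anti-CD3 wells (log2 change -2.06 ± 0.08, adjusted p = 9.7e-05). Mxi1 read 599 and 565 in the BTNL2 wells, 1499.7 and 1380.2 in the B7-2 wells and 1412 and 1469 in the anti-CD3 wells, and it fell 2.47-fold in BTNL2 over B7-2 wells (log2 change -1.31 ± 0.09, adjusted p = 0.000131).
Polr3gl, a variant subunit gene of RNA polymerase III, read 54.4 and 60.9 in the BTNL2 wells, 93.9 and 98.2 in the B7-2 wells and 139 and 113 in the anti-CD3 wells and fell 2.18-fold in BTNL2 over anti-CD3 wells (log2 change -1.12 ± 0.12, adjusted p = 0.000599). Polr3d, another subunit gene, read 72.5 and 77.3 in the BTNL2 wells, 89.0 and 95.7 in the B7-2 wells and 59.4 and 57.8 in the anti-CD3 wells and rose 1.57-fold in B7-2 over anti-CD3 wells (log2 change 0.65 ± 0.09, adjusted p = 0.00265).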
